A study of Mus musculus with 17 samples.

Results

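Voltage-gated sodium and calcium channel genes were examined in RNA sequencing data from the mouse cochlea. They were chosen by symbol: protein-coding genes that begin with Cacna, Cacnb or Cacng, or with Scn followed by a number and a or b. Described here are 36 of the 35285 genes, which were 9 sodium channel α subunits, 3 sodium channel β subunits, 8 calcium channel α1 subunits, 4 α2δ subunits, 4 calcium channel β subunits and 8 γ subunits.

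The 17 libraries came from cochleae of male C57BL/6J mice of WT genotype, aged 8 weeks at the start, with 1 mouse per library. The NE group (noise exposure, n = 7) was exposed for 2 h to 8 to 16 kHz noise at 100 dB. This noise is broadband according to the sample labels and octave-band according to the methods of the study. Mice of the brimonidine group (n = 7) met the same noise and were injected intraperitoneally 3 times with 1 mg/kg of brimonidine, an agonist of α2-adrenergic receptors. The control group (n = 3) received saline and no noise, and unexposed mice given brimonidine were not analysed here. All cochleae were taken 2 days after exposure. The labels name cochlear cells as the tissue and interstitial cells as the cell type, whereas the methods of the study name cochleae in one place and basilar membrane tissue in another as the source of the sequenced RNA.

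The α subunit of a sodium channel forms the pore and opens on depolarization, which starts the action potential, and the β subunits adjust its gating and anchor it at the membrane. Calcium channels are built on an α1 pore subunit, with an α2δ and a β subunit that bring it to the surface, and they couple depolarization to transmitter release and contraction. Most γ subunits serve instead as partners of AMPA-type glutamate receptors. In the cochlea, channels of both kinds carry the signal of hair cells and spiral ganglion neurons to the brain.

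Levels are given in FPKM, the fragments counted on a gene, scaled to the length of its exons and to the total counted in the library, so that they can be compared between genes. The libraries held between 14457733 and 18288854 counted fragments. Control 2 stood apart from the other 16 libraries. It was the highest of the 3 controls for 33 of the 36 channel genes, while its summed level of 6 neutrophil markers was 8956 FPKM, against 36959 to 61153 in the other libraries. The neutrophil genes were far more abundant in every library than 8 hair cell markers, which summed to between 29.7 and 45.2 FPKM. Brimonidine 5 was the highest brimonidine library for 23 of the 36 channel genes, and NE 3 was high for a few sodium channel genes. For how many of all genes control 2 or brimonidine 5 was highest in its group was not counted.

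Cacng7, a γ subunit, had the highest level of the 36 genes, with 8.10 FPKM on average over the 17 libraries. It was followed by Cacnb3 at 6.97 FPKM and Scn4b at 5.52 FPKM. This order differed between groups. In the controls Cacng7 (mean 23.8 FPKM) was followed by Scn2b (14.2 FPKM). In the NE group Cacnb3 (6.47 FPKM) and Scn4b (5.51 FPKM) were above Cacng7 (4.66 FPKM). In the brimonidine group Cacnb3 (6.00 FPKM) was above Cacng7 (4.80 FPKM). Over the 17 libraries Scn8a had the highest mean of the sodium channel α subunits with 1.75 FPKM, and Cacna1g that of the α1 subunits with 3.46 FPKM. By group, the highest α subunit was Scn2a in the controls (mean 7.11 FPKM) and Scn7a in the NE and brimonidine groups (1.01 and 1.11 FPKM). The highest α1 subunit was Cacna1a in the controls (10.4 FPKM), Cacna1h in the NE group (2.78 FPKM) and Cacna1g in the brimonidine group (2.09 FPKM). Averaged over the 17 libraries the pore-forming subunits were low, and 5 of the 36 genes stayed under 1 FPKM in every library. These 5 were Scn3a, Scn9a, Scn3b, Cacna1f and Cacna2d4.

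**Figure D1:**
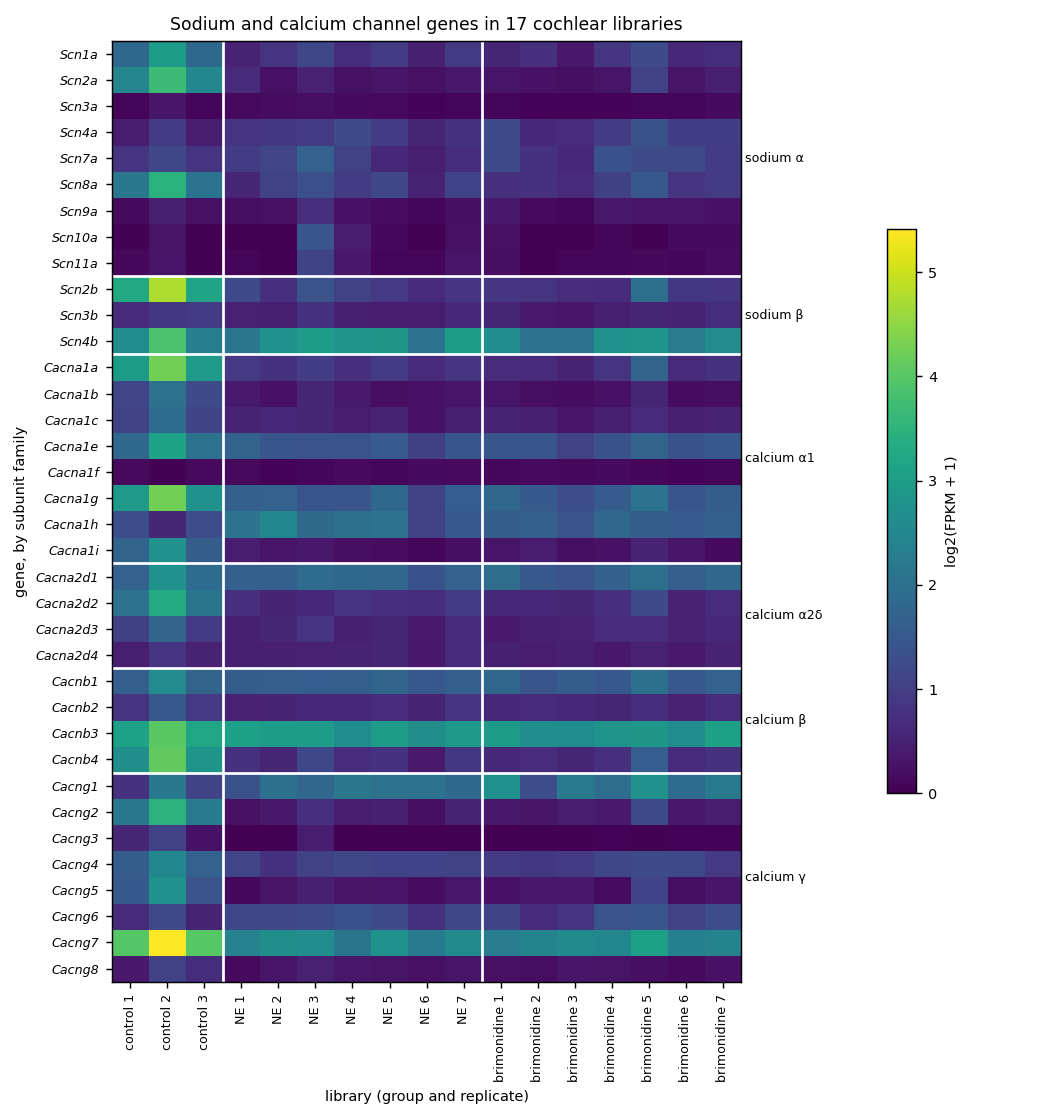
Level of the 36 channel genes (rows, grouped by subunit family) in the 17 libraries (columns, grouped as control, NE and brimonidine), as log2(FPKM + 1) on the color scale. Control 2 is the brightest column for most genes, the single highest value is that of Cacng7 in control 2, and Scn10a and Scn11a are brightest in NE 3.

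The comparison of the NE and control groups asked which channel genes differed 2 days after noise. Genes from all 6 subunit families were lower in the NE group, in 13 cases past both thresholds, and 0 were higher. A call needed an adjusted p under 0.05 (limma, Benjamini-Hochberg adjustment over 15950 genes) and at least a 2-fold change. Log2 fold changes (log2FC), on the scale of log2(FPKM + 1), lay between -2.75 and -1.12 for the 13 genes, each with its standard error (SE). On this scale the largest decreases were those of Scn2b, Cacna1a, Scn2a, Cacnb4 and Cacng2, an order that depends on the pseudocount of 1. As a share of the mean of controls 1 and 3, the NE medians of the 13 were lowest for Scn2a, Cacna1i, Cacng2 and Scn2b, at 5.06%, 7.93%, 9.46% and 10.4%. Of all genes tested, 5.49% were called lower and 0.270% higher. An expression filter (1 FPKM in at least 3 of the compared libraries) admitted 24 of the 36 channel genes, and 9 of the 13 called genes passed it only through the controls, so the count of 13 among 24 is no support on its own. With no filter all 36 entered the fit, and the same 13 were called lower, while 2.67% of 33587 genes were called lower and 0.0506% higher. In a bulk sample, fewer cells of a type and less RNA per cell cannot be told apart. Markers of granule cells, which are neurons of the cerebellum and not cells of the cochlea, moved with these genes, from 187 to 511 FPKM summed in the controls to between 19.6 and 28.6 in the NE group, and their part in the decreases was not tested.

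Among the sodium channel α subunits, Scn1a, Scn2a and Scn8a fell in the NE group. These 3 genes encode the main α subunits of central neurons, and Scn8a is also known from nodes of Ranvier. Scn2a (ENSMUSG00000075318, chromosome 2 from 65620771 to 65767447, mm10) was at 4.54, 12.1 and 4.66 FPKM in controls 1, 2 and 3 and between 0.184 and 0.560 (median 0.233) in the 7 NE libraries. The fit gave a log2FC of -2.53 (SE 0.24, adjusted p = 0.000148, limma). Scn8a was at 3.48, 9.94 and 3.19 FPKM in the controls and between 0.450 and 1.52 (median 1.08) in the NE group, the log2FC being -1.61 (SE 0.29, adjusted p = 0.00394). Scn1a was at 2.54, 7.00 and 2.52 FPKM and between 0.393 and 1.23 (median 0.790) in the same groups, the log2FC being -1.42 (SE 0.25, adjusted p = 0.00399). All 7 NE libraries lay below all 3 controls for each of the 3 genes.

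Scn7a, an atypical channel that responds to sodium concentration, was the only other sodium channel α subunit that passed the filter. It was at 0.782, 1.23 and 0.780 FPKM in the controls and between 0.380 and 2.27 (median 0.909) in the NE group, and the groups overlapped (log2FC 0.01, 95% interval -0.52 to 0.53). The other 5 α subunit genes described here were below the filter. They are Scn3a, the skeletal muscle gene Scn4a, and Scn9a, Scn10a and Scn11a of pain-sensing neurons.

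Of the sodium channel β subunits, Scn2b fell and Scn4b was not called. β subunits have a single membrane span and an immunoglobulin-like outer domain. Scn2b (ENSMUSG00000070304, chromosome 9 from 45117782 to 45130070) was at 8.71, 25.8 and 8.00 FPKM in the controls and between 0.586 and 1.60 (median 0.870) in the NE group, the log2FC being -2.75 (SE 0.30, adjusted p = 0.000285). The highest NE library was far below the lowest control.

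Scn4b was at 5.21, 13.7 and 3.98 FPKM in the controls and between 3.13 and 6.92 (median 6.06) in the NE group, and 5 of the 7 NE libraries were above controls 1 and 3. The fit gave a log2FC of -0.29 (95% interval -1.01 to 0.43, adjusted p = 0.564). The direction rested on control 2, without which the log2FC was 0.18. Scn3b was at 0.595, 0.844 and 0.900 FPKM in the controls and between 0.324 and 0.722 (median 0.393) in the NE group, below the filter.

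Scn2b and Scn4b are neighbours on chromosome 9, 8324 bases apart and on the same strand. The difference between their changes was -2.46 on the log2 scale (exact two-sided permutation test over libraries, p = 0.00833, the smallest p possible for 7 against 3; adjusted p = 0.00833 over 3 pairs of neighbours). RefSeq promoter windows (GRCm38.p6, 250 bases before to 50 after the start, plus strand) are shown for the pair because the changes of these adjacent genes differed. A link between the windows and the changes was not tested. The window of Scn2b, chr9:45117626-45117925, had 38.3% GC and 2 CpG. That of Scn4b, chr9:45138374-45138673, had 66.3% GC and 26 CpG, against medians of 52.7% and 7 over 32851 promoters. Capitals mark E-boxes (CANNTG) in the window of Scn2b, which held 3, and a CCAAT box, on the minus strand, in that of Scn4b.
Scn2b: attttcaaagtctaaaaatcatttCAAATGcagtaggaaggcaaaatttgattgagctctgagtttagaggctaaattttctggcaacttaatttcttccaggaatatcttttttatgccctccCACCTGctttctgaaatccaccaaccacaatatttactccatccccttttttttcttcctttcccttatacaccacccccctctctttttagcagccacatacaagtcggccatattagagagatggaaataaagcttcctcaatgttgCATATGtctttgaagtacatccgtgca
Scn4b: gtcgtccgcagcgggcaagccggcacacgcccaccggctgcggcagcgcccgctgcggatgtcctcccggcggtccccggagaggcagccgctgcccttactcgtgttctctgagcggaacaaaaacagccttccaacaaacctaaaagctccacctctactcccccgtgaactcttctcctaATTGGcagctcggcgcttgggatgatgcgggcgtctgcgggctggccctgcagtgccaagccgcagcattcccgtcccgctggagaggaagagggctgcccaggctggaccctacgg
An E-box occurred in 72.3% of all promoters and a CCAAT box in 37.4%, on either strand, so neither motif was particular to these genes. The windows also held no GC box (GGGCGG, in 35.7% of all promoters) and no TATAAA (in 13.6%). RefSeq windows were found for 28 of the 36 genes, 38 windows in all, and 1 of them, at Scn2a, held TATAAA.

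**Figure D2:**
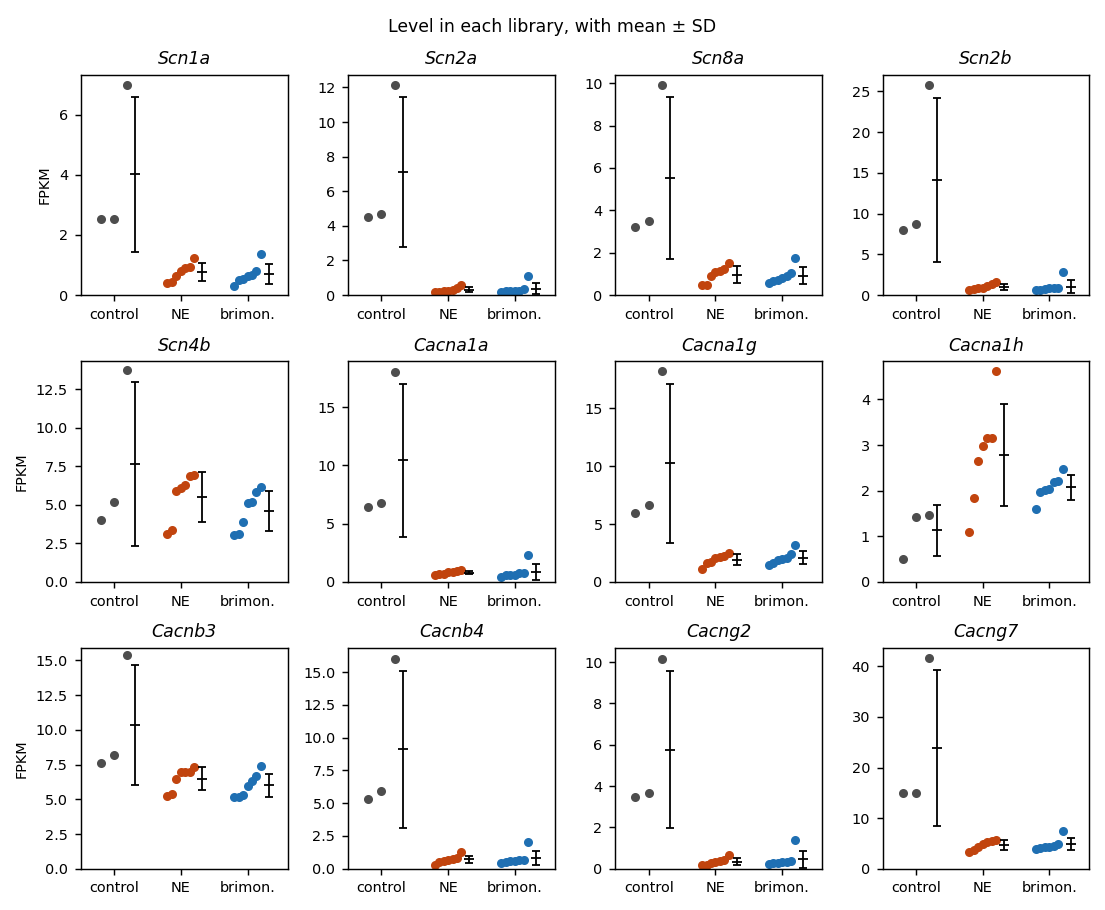
FPKM of 12 channel genes in each library, by group (control n = 3, NE n = 7, brimonidine n = 7, the points sorted by value), with the group mean and SD as a bar at the right of each group. The highest control point is control 2 in every panel but that of Cacna1h, where it is the lowest, and the NE and brimonidine points overlap in all 12.

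Of the calcium channel α1 subunits, Cacna1a, Cacna1b, Cacna1g and Cacna1i fell in the NE group. Cacna1a and Cacna1b form the P/Q-type and N-type channels of synaptic terminals, and Cacna1g and Cacna1i form T-type channels that open at low voltage. Cacna1a (ENSMUSG00000034656, chromosome 8 from 84388440 to 84640246) was at 6.78, 18.0 and 6.46 FPKM in the controls and between 0.594 and 0.991 (median 0.815) in the NE group, the log2FC being -2.53 (SE 0.25, adjusted p = 0.000164). Cacna1b was at 1.19, 3.04 and 1.39 FPKM and between 0.143 and 0.506 (median 0.240) in the same groups, the log2FC being -1.12 (SE 0.19, adjusted p = 0.00260). Cacna1g was at 6.65, 18.2 and 5.91 FPKM and between 1.08 and 2.51 (median 2.09), the log2FC being -1.80 (SE 0.28, adjusted p = 0.00187). Cacna1i was at 2.34, 5.66 and 2.02 FPKM and between 0.0643 and 0.352 (median 0.173), the log2FC being -1.76 (SE 0.22, adjusted p = 0.000522). For these 4 genes no NE library reached the lowest control.

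The third T-type gene, Cacna1h, had a positive difference. It was at 1.47, 0.493 and 1.43 FPKM in the controls and between 1.10 and 4.63 (median 2.97) in the NE group, and only NE 6 lay within the control range. The fit gave a log2FC of 0.81 (SE 0.27, adjusted p = 0.0744, limma), short of both thresholds, and 0.57 (adjusted p = 0.297) without control 2. Of the 3 T-type genes, 2 were thus called lower and Cacna1h was not called.

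Cacna1e, the R-type subunit, and Cacna1c, the L-type subunit of heart and smooth muscle, had adjusted p values under 0.05 with less than a 2-fold change on the scale of log2(FPKM + 1), which compresses changes at such low levels. With a pseudocount of 0.1 both were called lower (log2FC -1.68 for Cacna1c and -1.19 for Cacna1e). Cacna1e was at 2.57, 7.70 and 3.06 FPKM in the controls and between 1.05 and 2.29 (median 1.69) in the NE group (log2FC -0.90, adjusted p = 0.0330), and without control 2 the log2FC was -0.50 (adjusted p = 0.0722). Cacna1c was at 1.05, 2.74 and 1.16 FPKM and between 0.209 and 0.551 (median 0.425) (log2FC -0.86, adjusted p = 0.0109; -0.58 and 0.0115 without control 2). Cacna1f, the L-type subunit of photoreceptors, did not exceed 0.119 FPKM in any library.

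Each family of auxiliary calcium channel subunits held called and uncalled genes. Cacna2d2, an α2δ subunit, was at 3.11, 9.03 and 3.27 FPKM in the controls and between 0.462 and 0.950 (median 0.681) in the NE group, the log2FC being -1.75 (SE 0.24, adjusted p = 0.000936). Cacna2d1, a gabapentin-binding α2δ subunit of muscle and sensory neurons, was at 2.27, 5.78 and 2.70 FPKM in the controls. In the NE group it was between 1.59 and 2.71 (median 2.26), and the groups overlapped (log2FC -0.42, adjusted p = 0.170, and -0.10 without control 2). Cacna2d3 was at 1.04, 2.42 and 0.884 FPKM in the controls and between 0.313 and 0.754 (median 0.484) in the NE group, below the filter.

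Cacnb4, the β subunit that is abundant in the cerebellum, was at 5.36, 16.0 and 5.96 FPKM in the controls and between 0.318 and 1.26 (median 0.706) in the NE group, the log2FC being -2.43 (SE 0.28, adjusted p = 0.000347). Of its exons, 16.0% of the bases overlap a transcript on the other strand. Cacnb3, the β subunit with the highest level, was at 7.58, 15.4 and 8.17 FPKM in the controls and between 5.22 and 7.34 (median 6.95) in the NE group. Its highest NE library was just below its lowest control (log2FC -0.55, adjusted p = 0.0712, and -0.26 without control 2). Cacnb1, the β subunit of skeletal muscle, was at 2.11, 5.15 and 2.29 FPKM in the controls and between 1.81 and 2.33 (median 2.09) in the NE group (log2FC -0.37, adjusted p = 0.181, and -0.06 without control 2). Cacnb2 was below the filter.

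Of the γ subunits, Cacng2, Cacng5 and Cacng7 fell in the NE group. All 3 are known as auxiliary subunits of AMPA receptors, and Cacng2 (stargazin) is named for an ataxic mouse. Cacng2 was at 3.49, 10.2 and 3.65 FPKM in the controls and between 0.173 and 0.653 (median 0.337) in the NE group, the log2FC being -2.20 (SE 0.25, adjusted p = 0.000355). Cacng7, the most abundant γ subunit, was at 14.9, 41.6 and 15.0 FPKM and between 3.29 and 5.77 (median 4.91), the log2FC being -1.98 (SE 0.28, adjusted p = 0.00107). Cacng5 was at 1.88, 5.65 and 1.62 FPKM and between 0.0892 and 0.388 (median 0.221), the log2FC being -1.59 (SE 0.25, adjusted p = 0.00178). The NE values of Cacng5 rest on 6 to 26 fragments per library, against 100 to 329 in the controls.

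Cacng4, also an AMPA receptor partner, was at 2.01, 4.75 and 2.24 FPKM in the controls and between 0.742 and 1.21 (median 1.13) in the NE group (log2FC -0.88, adjusted p = 0.00912), short of a 2-fold change on this scale, and it was called lower with a pseudocount of 0.1 (log2FC -1.29). Cacng3 was at 0.498, 1.07 and 0.202 FPKM in the controls and listed at 0 in 6 NE libraries, where a count of 0 allows up to 0.0685 FPKM (3 fragments, counting error only). The skeletal muscle genes Cacng1 and Cacng6 lay the other way. Cacng1 was at 0.720, 3.59 and 1.15 FPKM in the controls and between 1.55 and 3.41 (median 2.98) in the NE group (log2FC 0.53, adjusted p = 0.199). Cacng6 was at 0.595, 1.30 and 0.440 FPKM and between 0.738 and 1.58 (median 1.26) (log2FC 0.36, adjusted p = 0.150). For both genes control 2 was above controls 1 and 3, and without it the log2FCs were 0.94 (adjusted p = 0.00966) and 0.56 (adjusted p = 0.0309).

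No NE library reached the lowest control for any of the 13 called genes, and among the 24 genes tested this held for 17. Of all genes tested it held for 15.0%, and since genes high only in the controls could pass the filter, the count of 17 is no support either. For each of the 13 genes control 2 was the highest control, at 2.35 to 3.23 times the mean of controls 1 and 3. With control 2 left out and the same genes tested, the log2FCs of the 13 lay between -2.24 and -0.85, and 12 stayed called. Cacna1b then missed the 2-fold change. With the filter applied anew to the 9 remaining libraries, 16 channel genes were tested and 6 called, against 8 without control 1 and 7 without control 3, since genes above 1 FPKM only in controls can no longer pass with 2 controls.

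The brimonidine group was compared with the same 3 controls, so its values are not independent of those above. Among 15947 genes, 5.56% were called lower and 0.169% higher in the brimonidine group. Of 25 channel genes tested, 13 were called lower and 0 higher, and the 13 were the genes called in the NE group. Of these, 11 passed the filter only through the controls, so the count is again no support on its own. With no filter, the same 13 of 36 were called lower, against 2.69% of 33505 genes, and 0 were called higher, against 0.0269%. The log2FCs lay between -2.77 for Scn2b and -1.20 for Cacna1b, with adjusted p values from 0.00111 to 0.00653 (limma). At an unadjusted p under 0.05, 17 of the 25 were lower and 2 higher, against 22.0% and 13.6% of all genes. The limit set by the filter holds for the 17 as well. In brimonidine libraries Scn2b was between 0.589 and 2.87 (median 0.801) FPKM, Scn2a between 0.168 and 1.09 (median 0.233), Cacna1a between 0.442 and 2.32 (median 0.613) and Cacnb4 between 0.471 and 2.05 (median 0.622). Each maximum was brimonidine 5.

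The other called genes had the following levels in the brimonidine group. Scn1a was between 0.295 and 1.36 (median 0.642) FPKM and Scn8a between 0.553 and 1.76 (median 0.786). Cacna1b was between 0.127 and 0.475 (median 0.169) FPKM, Cacna1g between 1.47 and 3.15 (median 1.99), Cacna1i between 0.122 and 0.451 (median 0.231) and Cacna2d2 between 0.417 and 1.41 (median 0.526). Cacng2 was between 0.222 and 1.39 (median 0.305) FPKM, Cacng5 between 0.131 and 1.11 (median 0.251) and Cacng7 between 3.89 and 7.37 (median 4.39). Brimonidine 5 was the maximum for all 13 genes, at 1.62 to 4.91 times the median of the other 6, and it too lay below the lowest control for each of them. Without brimonidine 5 the number called was still 13. Without control 2, 12 of the 13 stayed called when the same genes were tested. With both libraries left out and the filter applied anew, 13 channel genes were tested and 3 called lower.

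Cacna1h was between 1.60 and 2.47 (median 2.04) FPKM in the brimonidine group, and every library lay above the highest control, which held for 5.07% of all genes tested. The fit gave a log2FC of 0.56 (SE 0.16, adjusted p = 0.0379, limma), short of a 2-fold change, and 0.32 (adjusted p = 0.0904) without control 2. Cacnb3 was between 5.17 and 7.40 (median 5.97) FPKM (log2FC -0.64, adjusted p = 0.0394), also under the fold minimum, and without control 2 its log2FC was -0.35 (adjusted p = 0.0955). Cacna1c, Cacna1e and Cacng4 had log2FCs of -0.87, -0.92 and -0.89, and -0.59, -0.52 and -0.60 without control 2 (all 3 were called lower with a pseudocount of 0.1), with brimonidine levels between 0.251 and 0.555 (median 0.389), 1.09 and 2.31 (median 1.70) and 0.826 and 1.37 (median 0.936) FPKM. Cacna2d1, Cacna2d3 and Cacnb1 lay between 1.62 and 2.90 (median 2.21), 0.312 and 0.616 (median 0.409) and 1.66 and 2.96 (median 2.01) FPKM. Scn4b, between 3.04 and 6.15 (median 5.13) FPKM, overlapped the controls (log2FC -0.49, adjusted p = 0.276, and -0.02 without control 2). Cacng1, between 1.43 and 5.76 (median 3.65) FPKM, showed a log2FC of 0.79 (adjusted p = 0.136). Without control 2 the change of Cacng1 was 1.21 and was called higher (adjusted p = 0.0431).

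**Figure D3:**
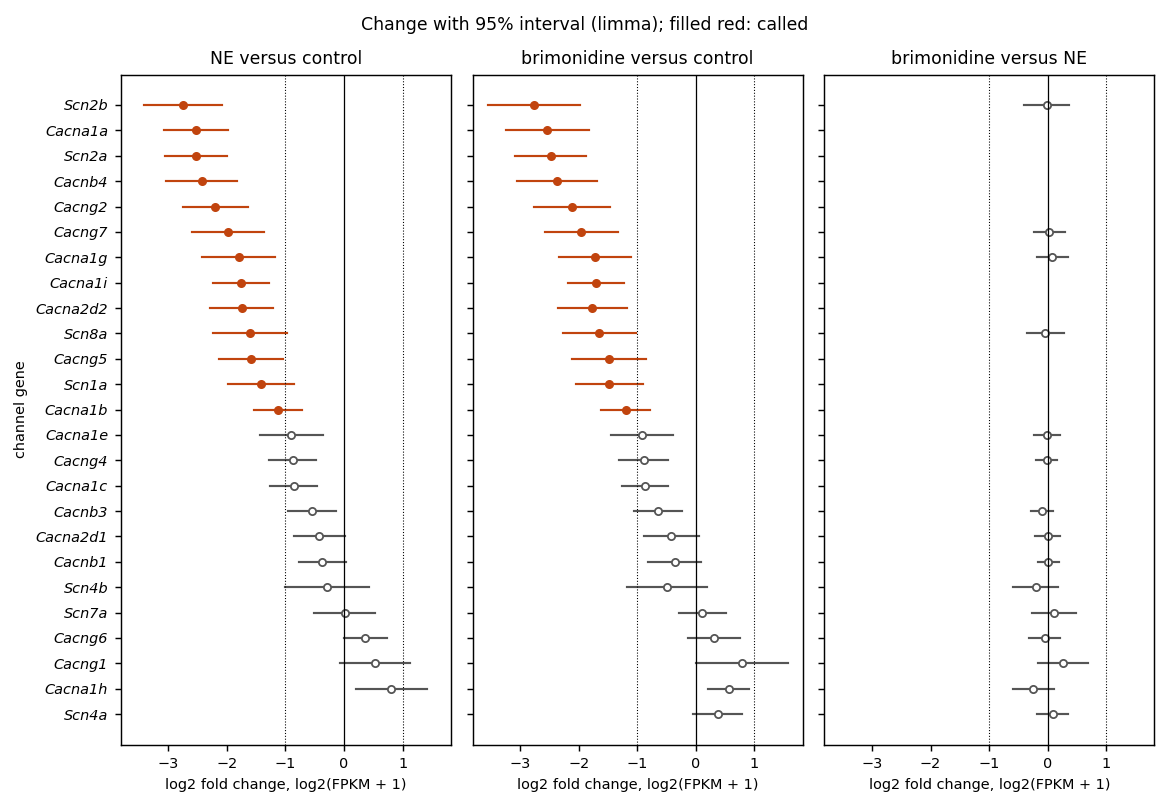
Log2 fold change on the scale of log2(FPKM + 1), with its 95% interval from limma, for the channel genes tested in each of the 3 comparisons. Filled red points mark the 13 genes called in each comparison with the controls, open points the genes not called, and dotted lines a 2-fold change, while all 15 genes tested between the brimonidine and NE groups lie near 0.

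The brimonidine and NE groups were compared to ask whether the drug altered the noise-exposed levels. No channel gene differed at the thresholds used. Of 15707 genes tested, 0% were called lower and 0% higher, and 2.46% were lower and 3.30% higher at an unadjusted p under 0.05 (limma). Of the 15 channel genes tested, 0 reached an unadjusted p under 0.05. None had groups that did not overlap, while 0.0382% of all genes tested lay wholly lower and 0.102% wholly higher in the brimonidine group. Their log2FCs ran from -0.25 for Cacna1h to 0.26 for Cacng1, 6 above 0 and 9 below, with adjusted p values from 0.899 to 0.999. The 95% intervals of these 15 genes stayed between -0.60 and 0.68, so changes above 2-fold on this scale lay outside them. For the 13 genes called against the controls, fitted without the filter, the differences ran from -0.07 to 0.11 and the intervals stayed between -0.42 and 0.39. Many of these levels are near 0, where log2(FPKM + 1) compresses differences. A fit on recovered fragments also called 0.

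Cacng7, the channel gene with the highest mean over the 17 libraries, showed a log2FC of 0.03 (95% interval -0.24 to 0.30) between the exposed groups. For Cacnb3 it was -0.09 (-0.28 to 0.09) and for Scn4b -0.20 (-0.59 to 0.18). Scn2b had -0.02 (-0.41 to 0.37). A p above the threshold does not show that the groups were alike, and the intervals give the sizes that remain possible.

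Scn10a and Scn11a, the tetrodotoxin-resistant sodium channels of nociceptive sensory neurons, were high in a single library. Scn10a was at 1.70 FPKM in NE 3 and between 0.00715 and 0.323 FPKM in the other 6 NE libraries. In the controls it was at 0.0174, 0.223 and 0 FPKM, and in the brimonidine group it did not exceed 0.181 FPKM. NE 3 held 237 fragments of this gene and the next library 47. Where Scn10a was listed at 0, in control 3 and brimonidine 3, a count of 0 allows up to 0.0234 and 0.0207 FPKM. Scn11a was at 1.15 FPKM in NE 3 and between 0.0190 and 0.295 FPKM in the other NE libraries. Scn9a, which is shared by sensory and sympathetic neurons, was at 0.676 FPKM against 0.0546 to 0.197, and Scn7a at 2.27 FPKM against 0.380 to 1.19 in the other NE libraries.

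Other genes of nociceptive neurons were also high in NE 3. The 7 markers (Calca, Tac1, Trpv1, Mrgprd, P2rx3, Prrxl1 and Avil, a list drawn up after these values were seen) summed to 21.1 FPKM in NE 3, and to between 0.897 and 7.05 FPKM in the other NE libraries. Calca, which encodes the neuropeptide CGRP, was at 12.0 FPKM there and at most 3.47 in the other NE libraries. Prph, the neurofilament of small sensory and type II spiral ganglion neurons, was at 10.5 FPKM against at most 2.79. The high levels of Scn10a and Scn11a were those of 1 library, and no comparison between groups was drawn from them.

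Scn4a, Cacng1 and Cacng6 belong to the channels of skeletal muscle, and their levels were set beside those of other muscle genes. Scn4a was at 0.334, 0.936 and 0.336 FPKM in the controls, between 0.477 and 1.34 (median 0.834) in the NE group and between 0.514 and 1.53 (median 0.975) in the brimonidine group. Skeletal muscle markers (8 genes, among them Acta1, Ckm and Myh4) summed to 184, 505 and 222 FPKM in controls 1, 2 and 3, to 362 to 892 in the NE group and to 292 to 758 in the brimonidine group. Of the 8 markers, 4 were called higher in NE libraries and 1 in brimonidine libraries, against 0.270% and 0.169% of all genes tested. On log scales, log2(FPKM + 1) of the gene against log2 of the summed marker FPKM, Scn4a correlated with the markers over the 14 exposed libraries with Pearson's r = 0.863 (permutation p = 4e-05, adjusted p = 0.00012 over 3 relations) and Spearman's rho = 0.736 (permutation p = 0.00366, adjusted p = 0.00686). The r was 0.942 within the NE group and 0.943 within the brimonidine group (n = 7 each), and 0.820 without NE 4 and brimonidine 2, the libraries farthest from the median of the log2 sum.

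Cacng6 gave r = 0.798 (permutation p = 0.00057, adjusted p = 0.000855) and rho = 0.723 (permutation p = 0.00457, adjusted p = 0.00686), with r = 0.861 and 0.774 within the NE and brimonidine groups and 0.691 without the same 2 libraries. Cacng1 gave r = 0.614 (permutation p = 0.0186, adjusted p = 0.0186) and rho = 0.468 (permutation p = 0.0943, adjusted p = 0.0943). Its r was 0.926 within the brimonidine group and 0.336 within the NE group (n = 7 each, with no test of the difference), and 0.540 without the 2 libraries. The part of muscle tissue in the levels of these genes was not tested.

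Genes that work with the channels were examined in 4 lists. Of 12 sodium channel partners, all tested, 10 were called lower in NE libraries against the controls and 9 in brimonidine libraries, with 0 higher, against 5.49% and 5.56% of all genes tested. Of those called, Fgf14, Sptbn4 and Nrcam passed the filter only together with the controls in both comparisons, so these counts are no support on their own. The median log2FC was -1.25 in the NE group, beside -0.04 over all genes tested. The 4 with the smallest p were Cntnap1 and Cntn1, which join myelin to the axon beside nodes, Sptbn4, a spectrin that holds sodium channels at the axon initial segment, and Fgf14, a factor that binds their cytoplasmic tail. Cntnap1 was at 11.3, 33.7 and 12.1 FPKM in the controls, between 2.13 and 5.07 (median 3.40) in the NE group and between 2.51 and 5.78 (median 3.24) in the brimonidine group. Sptbn4 was at 3.68, 11.3 and 3.62 FPKM, between 0.340 and 1.08 (median 0.859) and between 0.418 and 1.58 (median 0.676). The log2FCs of Cntnap1, Cntn1, Sptbn4 and Fgf14 in the NE group were -2.05, -1.72, -1.89 and -1.26.

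Of 16 calcium channel partners, 13 were tested. In each exposed group 5 were called lower and 0 higher, against 5.49% (NE) and 5.56% (brimonidine) of all genes called lower. Rims1, Rims2 and Pclo passed the filter only together with the controls, so this count too is no support. Rims1, Rims2, Bsn and Pclo, which encode proteins of the presynaptic active zone, were among the 5, with log2FCs of -2.30, -2.08, -1.90 and -1.96 in the NE group. Rims1 was at 4.22, 11.3 and 4.19 FPKM in the controls and between 0.241 and 0.862 (median 0.385) in the NE group. Cabp2, a calcium sensor of hair cell channels, was at 2.66, 5.32 and 2.44 FPKM in the controls and between 2.43 and 3.59 (median 2.86) in the NE group, and was not called. The median over the list was -0.59.

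In the sodium leak channel complex, Unc80 and Fam155a were lower among 3 genes tested of 4 in both exposed groups (Fam155a passing the filter only with the controls, and Unc80 too in the brimonidine comparison), with Unc80 at 6.76, 17.9 and 7.17 FPKM in the controls and between 0.488 and 1.63 (median 0.912) in the NE group (log2FC -2.46). Of 6 intracellular calcium release channels, 5 were tested and Itpr1 and Ryr2 were lower in both exposed groups, Ryr2 passing only with the controls. Against 5.49% and 5.56% of all genes tested, lists this short are no support. Itpr1, the inositol trisphosphate receptor of Purkinje cells, was at 21.5, 56.0 and 21.4 FPKM in the controls and between 3.74 and 7.82 (median 6.85) in the NE group (log2FC -2.04). Ryr1, the skeletal muscle form, was at 1.05, 2.76 and 1.02 FPKM and between 1.28 and 3.63 (median 2.19), and was not called. Between the brimonidine and NE groups, 0 genes of the 4 lists were called.

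Granule and Purkinje cells belong to the cerebellum and not to the labelled cochlear tissue, and their markers moved with the same libraries as the channel genes. Of 8 cerebellar granule cell markers, all tested, 8 were called lower in both exposed groups, and so were all 6 Purkinje cell markers, against 5.49% and 5.56% of all genes tested. Of the granule cell markers 4 passed the filter only with the controls, and of the Purkinje cell markers 5 in the NE comparison and 4 in the brimonidine comparison, so these counts are no support on their own. The granule cell markers summed to 187, 511 and 203 FPKM in controls 1, 2 and 3, to between 19.6 and 28.6 FPKM in the NE group, to 69.6 FPKM in brimonidine 5 and to between 20.4 and 25.6 FPKM in the other brimonidine libraries. The Purkinje cell markers summed to 83.6, 221 and 77.2 FPKM in the controls, to at most 4.77 FPKM in the NE group and to 28.1 FPKM in brimonidine 5. Gabra6, the defining granule cell receptor subunit, was at 31.5, 93.4 and 36.9 FPKM in the controls, at most 2.08 in the NE group and at 0 in some exposed libraries, and at 8.81 in brimonidine 5. Pcp2, the defining Purkinje cell gene, was at 4.31, 8.76 and 2.08 FPKM in the controls and also listed at 0 in exposed libraries. Of 6 central glia markers tested, 4 were called lower in NE libraries and 5 in brimonidine libraries. Among those called, Olig1 passed the filter only with the controls in both comparisons. All 7 genes of that list summed to 144, 313 and 139 FPKM in the controls, to between 22.3 and 38.4 FPKM in the NE group, to 49.9 FPKM in brimonidine 5 and to at most 36.8 FPKM in the other brimonidine libraries. The part of these 3 lists in the lower level of the 13 channel genes was not tested.

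Markers of the cochlea's own cells were also counted. Of 5 hair cell markers tested in the NE group, 0 were called, with Otof at 2.19, 6.06 and 1.96 FPKM in the controls and between 2.34 and 3.22 (median 2.64) in the NE group. Of 6 Schwann cell markers, 0 were called in the NE group. With 5.49% of all genes tested called lower there, lists this short cannot show that a cell type was unchanged. Of 8 spiral ganglion neuron markers tested, 2 were called lower in NE libraries, Snap25 and Calb2. Brimonidine libraries gave 3 such calls. The shares called lower over all genes tested were 5.49% and 5.56%, and a list of 8 is no support on its own. Whether the RNA of Snap25 and Calb2 came from spiral ganglion neurons was not tested. All 9 markers of that list summed to 196, 533 and 173 FPKM in the controls, to between 56.6 and 156 FPKM in the NE group and to between 71.8 and 112 FPKM in the brimonidine group. Single markers differed in this: Calb2, at 81.9, 225 and 63.2 FPKM in the controls and between 20.0 and 48.6 (median 38.4) in the NE group, and Snap25 gave most of the control sums, whereas Nefm, at 7.93, 18.4 and 5.97 FPKM and between 3.56 and 11.9 (median 9.14), overlapped the controls. Their part in the lower channel genes was not tested. Nefh, the heavy neurofilament, was at 17.8, 53.0 and 15.0 FPKM in the controls and between 7.19 and 22.3 (median 17.0) in the NE group. Smooth muscle markers (3 tested) and neutrophil markers (6 tested) gave 0 calls in any comparison, and the limit of short lists holds for them too.

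**Figure D4:**
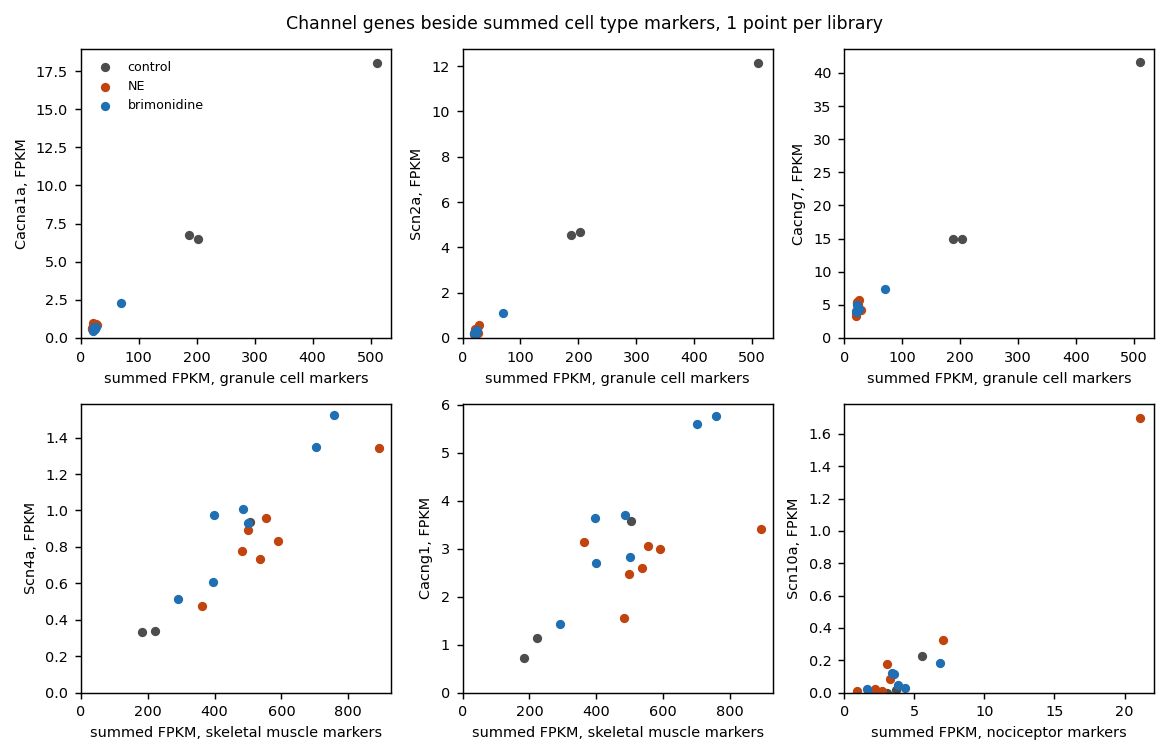
FPKM of 6 channel genes (vertical axes) against the summed FPKM of marker genes (horizontal axes), 1 point per library: cerebellar granule cell markers in the upper row, skeletal muscle and nociceptor markers in the lower row. Controls lie at 187 to 511 FPKM of granule cell markers and brimonidine 5 at 69.6, apart from the other exposed libraries, Scn4a is higher where the muscle markers are, and NE 3 stands alone at 21.1 FPKM of nociceptor markers.

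Other channel genes also lie next to each other. On chromosome 11, Cacng1, Cacng4 and Cacng5 lie in a row, with log2FCs of 0.53, -0.88 and -1.59 in the NE group. The difference between Cacng1 and Cacng4 was 1.41 (exact two-sided permutation test, p = 0.00833, adjusted p = 0.00833 over the 3 pairs). That between Cacng4 and Cacng5 was 0.71 and is given as a description, since Cacng5 reached 1 FPKM in no NE library. On chromosome 2, Scn2a lies 53143 bases from Scn3a, which did not exceed 0.254 FPKM in any library. In the same cluster Scn1a, which fell, lies 39239 bases from Scn9a. The changes of Scn9a and its other neighbour Scn7a differed by -0.03 on the log2 scale, Scn9a being below the filter. On chromosome 7, Cacng7 was at the levels given above, and Cacng8, 22461 bases away, was at 0.295, 1.10 and 0.636 FPKM in the controls and between 0.0972 and 0.414 (median 0.241) in the NE group.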

How the data were processed

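Total RNA of 17 cochlear samples was sequenced from TruSeq stranded mRNA libraries. The authors deposited FPKM values for 35285 genes, scaled by exon length and library total. The labels name Trimmomatic, HISAT2, Cufflinks, HTSeq and build mm10, without versions. Library totals were recovered from the FPKM steps with GENCODE M21 exon lengths: 92.0% of values above 0 were whole fragments within 0.05. No aligned reads were used, and strand use in counting is not given in the sources used here; exons of 8 channel genes overlap a gene on the other strand.

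Genes with 1 FPKM or more in 3 or more compared libraries were tested with limma 3.58.1 (lmFit, eBayes with trend) in R 4.3.3 on log2(FPKM + 1), each fit holding the compared groups. Single genes had exact two-sided permutation tests, and correlations 100000 resamples (Python 3.11.15, scipy 1.17.1). P-values measure the spread between mice. Alternatives were another pseudocount (0.1), no filter, equal totals, median ratio, 1 model, replicate block, array weights, no minimum fold change, each library left out and, added after seeing the data, limma's voom on recovered fragments, control 2 and brimonidine 5 left out together, and each control left out with the tested genes kept.

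Channel genes and lists were chosen with earlier results of these data known. The text gives values for called channel genes, the 3 highest of each family and those whose call changed with a library left out, and at most 4 called genes per partner list. Some genes that match the symbol rule or stood in the marker lists are not reported here, and the counts leave them out.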

Additional observations from a re-analysis of the deposited data

Results flagged for a closer look

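In each group of 7 libraries, the highest or lowest value of each of the 36 channel genes was set against Dixon's 95% critical value for the gap to its neighbour, taken as a share of the range. Of 72 groups examined, 17 held a value past it. A rate of about 1 in 20 by chance would need normally distributed values and independent groups. Low FPKM values need not be normally distributed. The groups share libraries, and brimonidine 5 held 10 of the 17 values and NE 3 held 5. The count of 17 therefore cannot be set against chance, and the values are listed as a description.

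Brimonidine 5 held 10 of the 17 values, each the highest of its group: 1.09 FPKM for Scn2a, 1.76 for Scn8a, 2.87 for Scn2b, 2.32 for Cacna1a, 0.475 for Cacna1b, 1.41 for Cacna2d2, 2.05 for Cacnb4, 1.39 for Cacng2, 1.11 for Cacng5 and 7.37 for Cacng7. All 10 genes were called lower against the controls. In the same library the granule cell markers summed to 69.6 FPKM, and their part in these values was not tested.

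NE 3 held 5 values, all the highest of the NE group: 2.27 FPKM for Scn7a, 0.676 for Scn9a, 1.70 for Scn10a, 1.15 for Scn11a and 0.350 for Cacng3. It also held the highest sum of nociceptive neuron markers, 21.1 FPKM, whose part was not tested. NE 2 was the lowest for Cacng4, at 0.742 FPKM. NE 6 was the lowest for Cacng6, at 0.738 FPKM, and had the lowest sum of skeletal muscle markers in the NE group, 362 FPKM.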

How the results depend on the processing

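The number of channel genes called lower in the NE group against control was 13, and between 11 and 16 with a pseudocount of 0.1, no filter, equal totals, the median ratio, 1 model, array weights, no minimum fold change and voom. It ranged from 6 to 13 with each library left out, was 6 without control 2 and brimonidine 5 together, and lay between 12 and 16 with 1 control left out and the tested genes kept. With the replicate block it was 0, as it was among all 15950 genes. The number higher was 0 in all of these. In the brimonidine group against control the number lower was 13, between 12 and 17 under the same settings and with 1 control left out and the tested genes kept, from 11 to 13 with a library left out, 3 without control 2 and brimonidine 5 together and 4 with the replicate block, which called 234 of all 15947 genes lower. The number higher was 0, and 1 with array weights (Cacng1), no minimum fold change (Cacna1h), voom (Cacna1h) and without control 2, whether or not the tested genes were kept (Cacng1). Between the brimonidine and NE groups both numbers were 0 under each alternative. Deviations of same-numbered libraries from their group means correlated between -0.22 and 0.08. No library of the second group in a comparison correlated best with the same-numbered library of the first. So few pairs cannot exclude a pairing of mice by replicate number. In the replicate block, exposed libraries 4 to 7 had no same-numbered control. Only replicates 1 to 3 then informed each comparison with the controls. The cause of these shifts was not tested, except that with 2 controls fewer genes pass the filter.

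The sign turned only for log2 fold changes that were not called. In the NE group against control, Scn4b was 0.387 with array weights, 0.183 without control 2 (tested genes kept, or brimonidine 5 also left out), and from -0.599 to 0.183 with each library left out. Scn7a was -0.0495 with a pseudocount of 0.1, -0.0053 with equal totals, -0.0620 with voom, -0.0442 without control 1 and -0.0453 without control 3 with the tested genes kept, and from -0.117 to 0.117 with each library left out. In the brimonidine group against control, Scn4b was 0.174 with array weights and Scn7a -0.0742 with the replicate block. Between the brimonidine and NE groups, Cacna2d1 was 0.0142 with equal totals and 0.0025 with array weights, Cacnb1 -0.0017 with the median ratio and -0.0490 without control 2 and brimonidine 5, Cacng7 -0.0004 with array weights and -0.0619 without those libraries, and Cacng4 0.0108 with array weights. With each library left out, the ranges there were -0.186 to 0.0459 for Scn2b, -0.132 to 0.0236 for Scn8a, -0.0813 to 0.0413 for Cacna1e, -0.0044 to 0.125 for Cacna1g, -0.0558 to 0.0501 for Cacna2d1, -0.0490 to 0.0464 for Cacnb1, -0.0572 to 0.0148 for Cacng4, -0.116 to 0.0185 for Cacng6 and -0.0619 to 0.0760 for Cacng7.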
